A study of Homo sapiens with 4 samples.

Results

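The epidermal differentiation complex is a cluster of genes on the long arm of human chromosome 1 that holds the S100A genes and the precursors of the cornified envelope. Its members were taken from the deposited count table as the genes of chromosome 1 (GRCh38) that start in a 1.8 Mb window running from just before S100A10 to just beyond S100A1, with a name of the S100A, SPRR, LCE, FLG, PGLYRP or SMCP families, or one of a short list of single genes (involucrin, loricrin, trichohyalin, repetin, hornerin, cornulin and small neighbours). This gave 68 of 58233 genes, spread over 1649 kb. They comprised 19 S100A genes, 12 SPRR genes, 21 LCE genes, 7 genes of the S100-fused type, IVL and LORICRIN, 2 PGLYRP genes, 4 other small genes and the antisense RNA FLG-AS1. By GENCODE type 6 of the 68 are pseudogenes.

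S100 proteins are small calcium sensors with paired EF-hand motifs that act as dimers inside cells and, for some, as secreted signals. The cornified envelope is the protein shell that replaces the plasma membrane of terminally differentiating keratinocytes. Involucrin and the small proline-rich (SPRR) proteins form its early scaffold, cross-linked by transglutaminases, and loricrin, the late cornified envelope (LCE) proteins and the filaggrin-type proteins are added later. Mammary epithelial lines of basal character are known to express several S100A and SPRR genes.

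RNA was sequenced from MCF10AT, an established line of human breast epithelium derived from MCF10A cells and carrying an oncogenic HRAS. The 4 libraries comprised 2 labelled Bromo+/- and 2 labelled non-target control, and all came from MCF10AT. The labels do not spell out Bromo+/-. The series concerns loss of EP300, which encodes the acetyltransferase p300, and its protocol describes lentiviral shRNA with puromycin selection, but no label ties an shRNA to these 4 libraries. The column names share a number within each group that the labels do not explain, and no label says that the replicates were separate cultures or whether a group is 1 clone. The p-values therefore measure only the spread between these libraries, which may be technical. EP300 itself stood at 121 and 126 CPM (counts per 1000000 of scaled library size) under the label Bromo+/- and at 106 and 111 CPM in the controls, so it was higher and not lower (log2 fold change 0.19, SE 0.06, edgeR adjusted p = 0.00701). Hence the groups are named here only by their labels. Libraries held 10835237 to 11975396 counts. Of 13179 genes tested, 53.5% passed an adjusted p of 0.05, 27.1% lower and 26.4% higher in the libraries labelled Bromo+/-. The epithelial identity given by the label was weak in that group: all 7 mammary epithelial markers (EPCAM, CDH1, KRT5, KRT14, KRT8, KRT18 and TP63) were lower past the threshold. KRT14, which had no count there, and TP63 were below the filter level of the test, 0.876 CPM, in both libraries of that group. They entered the test through the controls alone and could only be lower. The markers summed to 1091 to 1148 CPM in that group, against 7871 to 8129 CPM in the controls. The part of this difference in the values below was not tested.

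The promoters of 3 members on which the results turn are shown first, from RefSeq (GRCh38.p14), 250 bases before to 50 bases after the annotated start, 5′ to 3′ on the strand of the gene. Capitals mark matches, on either strand, to 6 motifs. TGANTCA is the AP-1 site, and the grainyhead-like site was searched as AACCNGTT. For KLF factors the letters were GGGTGTG, and for ETS factors CCGGAAG. The E-box of ZEB and SNAIL repressors is CAGGTG, and the TATA box was searched as TATAAA. No matches of different motifs overlapped in the promoters of tested members. S100A14 and S100A2 had the largest falls among the S100A genes with many counts in both groups, and SPRR1B lies in the SPRR cluster that was nearly silent in the libraries labelled Bromo+/-. The windows are chr1:153616276-153616575 (minus strand) for S100A14, chr1:153565795-153566094 (minus strand) for S100A2, which has a further start, and chr1:153030953-153031252 (plus strand) for SPRR1B.
S100A14: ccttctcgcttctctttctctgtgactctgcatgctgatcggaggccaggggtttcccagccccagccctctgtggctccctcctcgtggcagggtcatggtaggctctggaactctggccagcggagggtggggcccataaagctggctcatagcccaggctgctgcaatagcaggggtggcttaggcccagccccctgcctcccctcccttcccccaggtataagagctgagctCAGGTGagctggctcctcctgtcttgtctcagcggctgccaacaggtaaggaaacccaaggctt
S100A2: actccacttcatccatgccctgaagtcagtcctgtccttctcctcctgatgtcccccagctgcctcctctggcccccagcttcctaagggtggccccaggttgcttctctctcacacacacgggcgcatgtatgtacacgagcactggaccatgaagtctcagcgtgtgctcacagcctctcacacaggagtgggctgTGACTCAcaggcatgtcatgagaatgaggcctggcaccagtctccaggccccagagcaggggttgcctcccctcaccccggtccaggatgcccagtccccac
SPRR1B: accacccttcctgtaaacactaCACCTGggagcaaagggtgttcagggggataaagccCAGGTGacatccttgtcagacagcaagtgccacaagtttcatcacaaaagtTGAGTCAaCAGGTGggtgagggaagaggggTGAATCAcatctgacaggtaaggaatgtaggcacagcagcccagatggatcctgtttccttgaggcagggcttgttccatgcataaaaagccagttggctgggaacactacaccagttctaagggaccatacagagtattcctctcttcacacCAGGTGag

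Of the 68 members, 20 had enough counts to be tested, 16 had counts below the filter and 32 had no count in any library. Among the 20, 13 were lower, 3 were higher and 4 did not pass (edgeR quasi-likelihood test with Benjamini-Hochberg adjustment over all genes tested). Over all genes tested, 27.1% were lower and 26.4% higher. Of the 13 lower members 7 passed the filter through the controls alone and so could only be lower (CRCT1, SPRR1A, SPRR1B, SPRR2D, SPRR2A, SPRR2E and S100A9). Another 3 passed through the libraries labelled Bromo+/- (FLG, TCHH and S100A1). FLG and TCHH could enter the test only through that group, while S100A1 was also over the filter level in 1 control. Of the tested members 12 were lower by 2-fold or more, against 7.53% of all genes tested, and 10 by 4-fold or more, against 3.77%. The median log2 fold change was -2.29, against 0.01 over all genes tested. Because of the filter, these counts and the median describe the tested members and support nothing about the locus. The 10 members above the filter level of 0.876 CPM in all 4 libraries split into 6 lower (S100A10, S100A11, IVL, S100A2, S100A16 and S100A14), 2 higher (S100A6 and S100A13) and 2 that did not pass (S100A4 and S100A3). The libraries of the groups did not overlap for any of the 20 tested members, which the filter largely fixed for the 10 that passed through 1 group. Over all genes tested the share without overlap was 75.2%. Together the members took 0.834% and 0.807% of all counts in the controls, against 0.388% and 0.360% under the label Bromo+/-, nearly all of it from S100A genes. In bulk RNA, fewer cells of a type and less RNA per cell cannot be told apart, here and below.

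**Figure D1:**
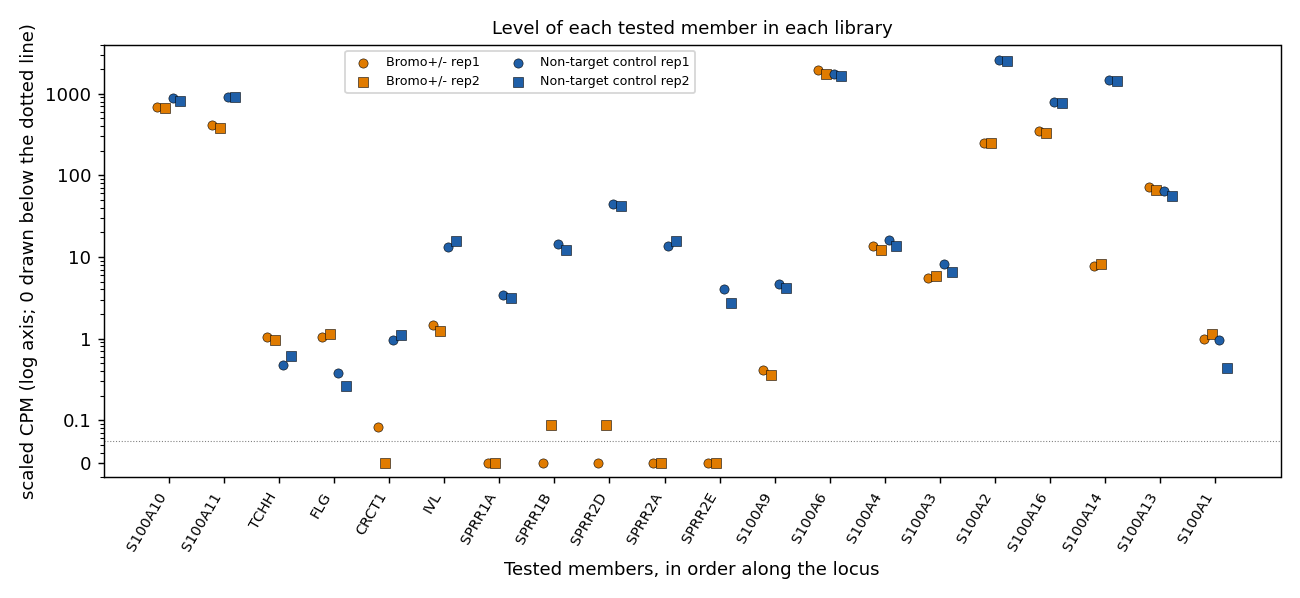
Scaled CPM (log axis) of each of the 20 tested members in each of the 4 libraries, in order along the locus; circles and squares are replicates 1 and 2, and values of 0 are drawn below the dotted line. The SPRR genes sit at or near 0 in the libraries labelled Bromo+/-, and S100A14 and S100A2 are far apart between the groups, while S100A6, S100A4, S100A3 and S100A13 lie close together.

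S100A14, an S100 protein of epithelial cells, showed the largest difference among the S100A genes. The S100A14 gene (chr1:153614255-153616986, minus strand) stood at 1484 and 1430 CPM in the controls and at 7.81 and 8.31 CPM under the label Bromo+/-. Both libraries labelled Bromo+/- were far below both controls, and the replicates of each group lay close together. S100A14 was 181-fold lower (log2 fold change -7.50, SE 0.08, edgeR adjusted p = 8.86e-193). S100A2, an S100 protein of basal epithelium (chr1:153561108-153567890, minus strand), stood at 249 and 247 CPM against 2615 and 2555 CPM in the controls. It was 10.4-fold lower (log2 fold change -3.38, SE 0.06, edgeR adjusted p = 1.08e-148) and kept 3058 and 2788 counts.

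S100A11 and S100A16 fell by similar amounts although they lie at opposite ends of the locus. S100A11, which binds annexin A1 and takes part in keratinocyte growth control, stood at 411 and 381 CPM against 919 and 900.4 CPM in the controls (log2 fold change -1.20, SE 0.05, edgeR adjusted p = 4.97e-63). S100A16, a widely expressed S100 protein, stood at 348 and 332 CPM against 788 and 762 CPM (log2 fold change -1.19, SE 0.05, edgeR adjusted p = 1.7e-62). In both cases the 2 groups were well separated and the controls were higher. S100A10, the p11 partner of annexin A2, differed less, at 696 and 675 CPM against 887 and 823 CPM (log2 fold change -0.32, SE 0.05, edgeR adjusted p = 8.31e-09).

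S100A9, a subunit of the antimicrobial protein calprotectin, had 49 and 48 counts in the controls against 5 and 4 under the label Bromo+/-, and fell by 3.49 on the log2 scale (SE 0.38, edgeR adjusted p = 9.91e-17). S100A9 passed the filter through the controls alone, so its direction was fixed by the filter and its call is a description. S100A8, the other calprotectin subunit, had 2 and 0 counts against 3 and 2, too few to test. S100A9 and S100A8 are abundant in myeloid cells, so leukocyte markers were read beside them. PTPRC, LYZ, ITGAM and CSF3R, which define leukocytes, were at 0 to 0.0953 CPM in every library. The whole leukocyte list summed to 29.2 to 30.2 CPM in the controls, against 6.46 to 8.14 CPM. CSF3R was at 0 in all libraries, and the sum came mostly from LCP1, CORO1A and CD14, which fell.

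S100A6 and S100A13 were higher in the libraries labelled Bromo+/-, by small amounts. S100A6 (calcyclin), an abundant S100 protein of growing cells, stood at 1966 and 1749 CPM against 1735 and 1633 CPM in the controls. Its lower Bromo+/- library was barely above the higher control. The log2 fold change was 0.14 (SE 0.05, edgeR adjusted p = 0.0143). S100A13, which takes part in the release of FGF1 and interleukin-1 alpha, stood at 72.8 and 67.1 CPM against 64.7 and 56.5 CPM (log2 fold change 0.21, SE 0.07, edgeR adjusted p = 0.0102). Both calls rested on single libraries. That for S100A6 was lost without Bromo+/- replicate 1 (edgeR adjusted p = 0.415), without control replicate 1 (0.0529) and without control replicate 2 (0.38), and with the DESeq2 Wald test (adjusted p = 0.066). That for S100A13 was lost without Bromo+/- replicate 1 (edgeR adjusted p = 0.11), without control replicate 2 (0.438) and with the DESeq2 Wald test (adjusted p = 0.129). S100A13 shares 235 exon bases with S100A1 on the other strand and the strand setting of the counting is not given, so reads of the pair may be shared. S100A1 had 40 counts in all, against 2988 for S100A13.

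S100A4, S100A3 and S100A1 did not pass. S100A4, which binds non-muscle myosin and is used as a marker of fibroblasts and of cell motility, stood at 13.5 and 12.3 CPM against 15.9 and 13.7 CPM (log2 fold change -0.19, SE 0.13, edgeR adjusted p = 0.205). S100A3, known from the hair cuticle, stood at 5.45 and 5.92 CPM against 8.20 and 6.56 CPM (log2 fold change -0.37, SE 0.18, edgeR adjusted p = 0.0754). Without control replicate 2 the fall of S100A3 passed (edgeR adjusted p = 0.0401). S100A1, known from muscle, had 12 and 13 counts against 10 and 5, and its 2 groups nearly touched (edgeR adjusted p = 0.251). Fibroblast markers summed to 3.63 to 4.39 CPM in the controls and 86.0 to 88.5 CPM under the label Bromo+/-, most of it DCN. Both tested fibroblast markers, DCN and COL1A1, were higher (log2 fold changes 6.75 and 1.38), and COL1A2 was at 0 in 3 of the 4 libraries. DCN was below the filter level of 0.876 CPM in both controls. It entered the test through the libraries labelled Bromo+/- alone and could only be higher. Melanocyte and Schwann markers summed to 1.34 to 1.81 CPM in the controls and 1.79 to 2.03 CPM in the other group, with SOX10 at 0, and endothelial markers to 2.94 to 4.48 and 3.34 to 3.80 CPM, with VWF at 0. Of the tested markers of these latter lists KDR was higher, and MLANA and PECAM1 did not pass. KDR had 15 and 22 counts under the label Bromo+/- against 8 and 5 in the controls. It too was below the filter level in both controls and could only be higher. The part of such cells in the S100A values was not tested.

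Per length, the S100A genes ranked differently in the groups. Levels here are RPKM, scaled CPM divided by the exon length in kb. In the controls the order was S100A6 (1787 and 1682 RPKM), S100A2 (1669 and 1631), S100A11 (1352 and 1324), S100A14 (1162 and 1120), S100A10 (575 and 534) and S100A16 (463 and 448). The lower S100A6 value there was just above the higher S100A2 value, so these neighbours in the order were close beside the spread of each. In the libraries labelled Bromo+/- the order was S100A6 (2025 and 1802 RPKM), S100A11 (605 and 560.2), S100A10 (451 and 437), S100A16 (205 and 195) and S100A2 (159 and 157). S100A14 dropped from rank 4 to rank 8 of the 11 tested S100A genes, below S100A4 and S100A13. The summed level of the 11 genes was 3503 and 3207 RPKM against 7070 and 6792 RPKM. S100A6 alone made up 25.3% and 24.8% of that sum in the controls and 57.8% and 56.2% under the label Bromo+/-, while S100A2 went from 23.6% and 24.0% in the controls to 4.53% and 4.91%.

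**Figure D2:**
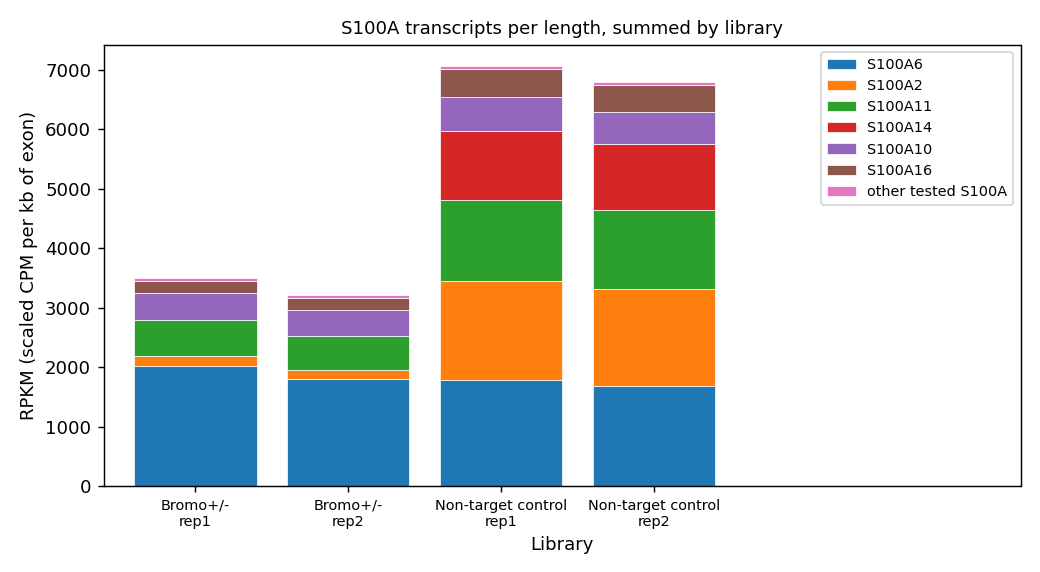
RPKM of the tested S100A genes stacked for each of the 4 libraries, with 1 bar per library and 1 colour per gene. The S100A6 part is of like height in every bar, while the S100A2 part shrinks and the S100A14 part all but disappears in the libraries labelled Bromo+/-.

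All 5 tested SPRR genes fell to at most 1 count in the libraries labelled Bromo+/-. These genes encode small proline-rich cross-bridging proteins of the cornified envelope. SPRR2D had 0 and 1 counts against 466 and 490 in the controls, and SPRR1B had 0 and 1 against 150 and 141. The ratio of control to Bromo+/- was 1022 for SPRR2D (95% exact binomial interval 183 to 40410, counting error only). For SPRR1B that ratio was 311 (interval 55.4 to 12330). SPRR2A had 0 and 0 counts against 143 and 181, SPRR2E had 0 and 0 against 42 and 32, and SPRR1A had 0 and 0 against 36 and 36. Taking 3 counts as the floor of a whole group, SPRR2A was at least 115-fold, SPRR2E at least 26.4-fold and SPRR1A at least 25.7-fold lower. No library of the group labelled Bromo+/- reached the lowest control for any of the 5 genes. All 5 passed the filter through the controls alone, so their direction was fixed by the filter and their counts are given as a description. A count of 0 allows up to 0.244 and 0.265 CPM in those 2 libraries.

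Within the SPRR cluster the control levels were uneven. SPRR2D stood at 42.0 and 40.0 RPKM in the controls, SPRR1B at 23.1 and 19.6, SPRR2A at 19.2 and 22.0, SPRR1A at 12.7 and 11.5 and SPRR2E at 5.46 and 3.76 RPKM. SPRR1B and SPRR2A overlapped in that order, and the others were apart. The remaining SPRR genes were near or at 0 in both groups: SPRR3 had 1 count in each control, SPRR4, SPRR2B, SPRR2F and SPRR2C had 1 count in 1 control each, and SPRR5 and SPRR2G had none. The single counts of SPRR2B, SPRR2F and SPRR2C are uncertain, because SPRR2 transcripts share sequence. Of the 50-base windows of their GENCODE transcripts, 32.7% for SPRR2A, 23.4% for SPRR2E and 19.3% for SPRR2D also occur in another gene, each time in other SPRR2 genes. SPRR1A and SPRR1B share 11.3% and 4.38% of their windows. The deposited model of SPRR1A covers only 270 bases, so its level rests on a short stretch.

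IVL (chr1:152908545-152911886, plus strand), which encodes involucrin of the early envelope scaffold, had 139 and 181 counts in the controls and 18 and 14 under the label Bromo+/-. It was 10.7-fold lower (log2 fold change -3.41, SE 0.22, edgeR adjusted p = 3.17e-38), with both libraries of 1 group far from both of the other. LORICRIN, the main envelope protein of skin, had no count in any library. CRCT1, a small cysteine-rich protein gene beside the LCE cluster, had 1 and 0 counts against 10 and 13, a control to Bromo+/- ratio of 24.6 (95% exact interval 3.99 to 1013).

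The S100-fused genes, whose long proteins join an S100 domain to many repeats, were close to the limit of detection. FLG, which encodes filaggrin, the keratin-bundling protein of the upper epidermis, had 4 and 3 counts in the controls and 13 and 13 under the label Bromo+/- (log2 fold change 1.76, SE 0.56, edgeR adjusted p = 0.00373). FLG passed the filter only through the group where it was higher, so its call is a description. That call was lost without control replicate 2 (edgeR adjusted p = 0.118) and with the DESeq2 Wald test (adjusted p = 0.123). FLG also shares 704 exon bases with FLG-AS1 on the other strand, which had 2, 6, 2 and 1 counts. TCHH, trichohyalin of the hair follicle, had 13 and 11 counts against 5 and 7 and did not pass (edgeR adjusted p = 0.118). HRNR had 2 and 3 counts against 1 and 1, and TCHHL1, RPTN, FLG2 and CRNN had none. Per length FLG stood at 0.083 and 0.0902 RPKM in the libraries labelled Bromo+/-, and IVL at 6.16 and 7.26 RPKM in the controls.

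The LCE genes, which encode late envelope proteins, could not be compared at this depth. Of the 21 LCE genes 17 had no count in any library. LCE3D, of the group induced by barrier injury in skin, had 7 and 9 counts in the controls and 13 and 7 in the other group, and the groups overlapped. LCE3E had 1 count in each library labelled Bromo+/-, LCE1B had 1 count in each of the 4 libraries, and LCE1E had 0, 2, 0 and 1. Of the peptidoglycan recognition proteins, PGLYRP3 had 1 and 2 counts in the controls only and PGLYRP4 had none. PRR9 had 1, 0, 0 and 1 counts, and SMCP and LELP1 had none.

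The remaining S100A genes were also scarce. S100A7 (psoriasin), an antimicrobial S100 protein of inflamed skin, had 3 counts in control replicate 2 only. S100A5 had 3 and 2 counts against 5 and 7. S100A12, S100A7A, S100A7L2, S100A7P1 and S100A15A had no count in any library.

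Along the locus, members with steep falls lay next to members with small differences. From the centromeric side, S100A10 and S100A11 had log2 fold changes of -0.32 and -1.20. TCHH and FLG, 123 and 319 kb from the start of S100A10, had positive values at few counts (0.89 and 1.76). From CRCT1 at 532 kb to SPRR2E the 7 tested members (CRCT1, IVL and 5 SPRR genes) were lower, with IVL at -3.41 and the others at bounds or ratios of -4.62 or below. All of these but IVL passed the filter through the controls alone and could only be lower, so the run of falls there is in part set by the filter. At the telomeric end, genes with little change alternated with genes that fell steeply. S100A6, S100A4 and S100A3, of which S100A3 lies inside the span of S100A4 with no shared exon bases, had log2 fold changes of 0.14, -0.19 and -0.37. S100A2 is the next tested member, at -3.38. S100A14 lies 1.11 kb from S100A16 and 1.80 kb from S100A13, all on the minus strand. S100A14 stood at -7.50 where S100A16 stood at -1.19 and S100A13 at 0.21, so the log2 fold changes of S100A13 and S100A14 differ by 7.71.

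**Figure D3:**
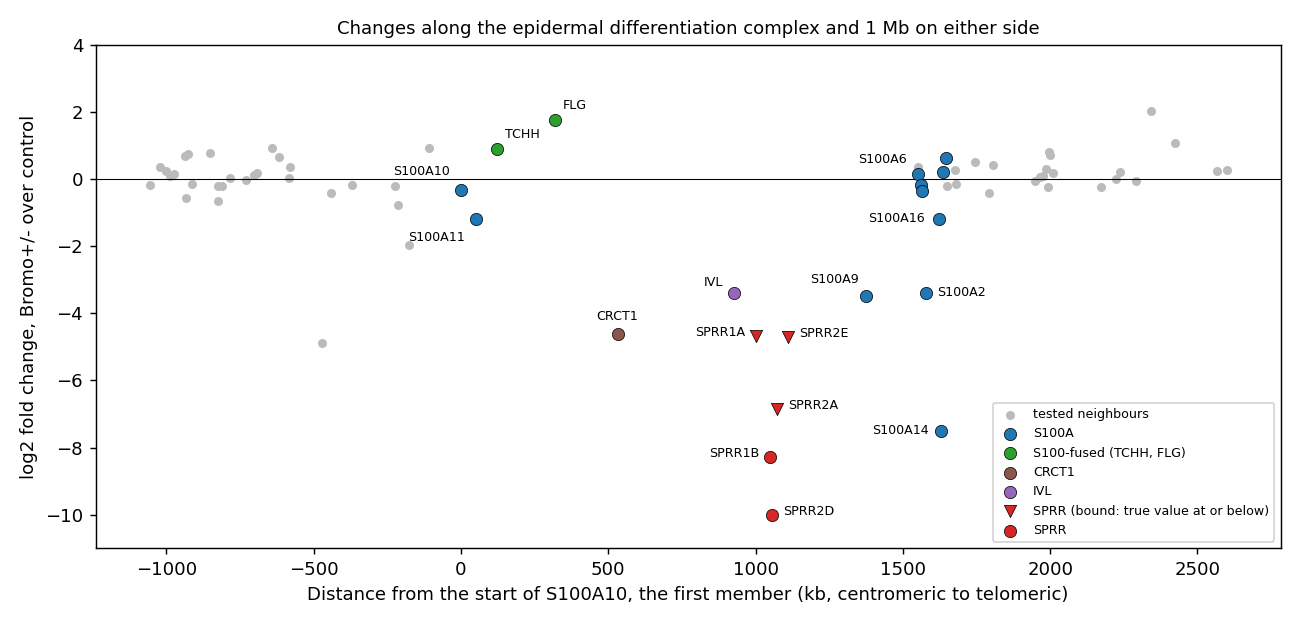
Log2 fold change (Bromo+/- over control) of the 20 tested members and 51 tested neighbours against distance in kb from the start of S100A10; colours are families, grey points are neighbours, and triangles are bounds for genes without a count under the label Bromo+/-. Low points lie in the middle, at IVL, CRCT1 and the SPRR genes, and at S100A9, S100A2 and S100A14; of these only IVL, S100A2 and S100A14 passed the filter through both groups. Most grey points stay near 0.

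**Figure D4:**
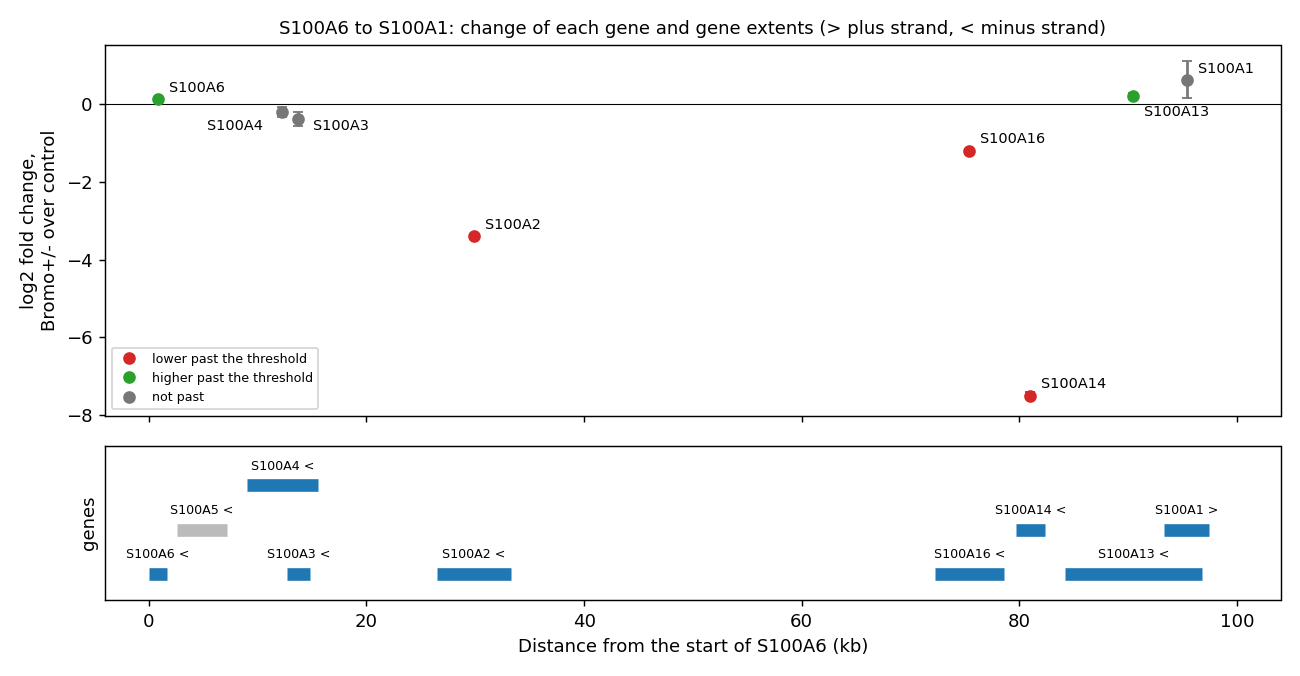
Upper panel, log2 fold change (points, bars are SE) of each tested gene from S100A6 to S100A1; lower panel, gene extents to scale in kb from the start of S100A6, with strand. S100A14, at -7.50, sits between S100A16, at -1.19, and S100A13, at 0.21.

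The neighbours of the complex were called in shares near those of all genes. Of 51 tested genes that lie in the window or within 1 Mb of it and are not members, 13 were lower, 17 were higher and 21 did not pass, where 27.1% of all genes tested were lower and 26.4% higher. The median log2 fold change was 0.09, against 0.01 for all genes tested. A neighbour that passed the filter through 1 group alone could only be higher in that group. In the window itself the 4 tested neighbours lay between -0.22 and 0.36, and CHTOP, SNAPIN and ILF2, which follow S100A1 directly, changed by -0.22, 0.27 and -0.15. The antisense gene ENSG00000238279, which overlaps S100A6 by 23 bases and is the 1 tested neighbour between members, did not pass (log2 fold change 0.36, edgeR adjusted p = 0.276). Among the neighbours with the largest falls were CGN, the tight-junction protein cingulin (-4.90), and TDRKH, a Tudor-domain protein (-0.78). The largest rises were those of ATP8B2, a phospholipid flippase (2.01), IL6R, the interleukin-6 receptor (1.07), and THEM4 (0.93). ATP8B2 had 15 and 16 counts under the label Bromo+/- against 5 and 2 in the controls. Both controls were below the filter level of 0.876 CPM for this gene, so it could only be higher. CGN stood at 1.63 and 1.24 CPM against 42.8 and 43.6 CPM in the controls, and it lies before S100A10 on the centromeric side.

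Most tested cornified envelope genes outside the complex fell, as IVL and the SPRR genes did. Of 31 such genes 19 were tested and 18 were lower, none was higher, and CNFN did not pass, where 27.1% of all genes tested were lower. Among the 18 is ELF3, a transcription factor that also stands in the list of regulators below. The median log2 fold change was -2.40, against 0.01 for all genes tested. Genes that passed the filter only through the controls, among them ELF3 and A2ML1, could only be lower. The counts and median therefore describe the tested genes only. KRT6B, KRT6A and KRT16, keratins of stressed and activated keratinocytes, had log2 fold changes of -7.90, -4.02 and -4.79. A2ML1, a protease inhibitor of the epidermis, had 1 and 0 counts against 1313 and 1488. KRT6A and KRT6B are close in sequence, and their counts may be split. TGM1, the transglutaminase that cross-links the envelope, was at 1.71 and 1.68 CPM against 6.10 and 7.08 CPM and fell by 1.96 (SE 0.25). KRT1, CDSN, DSG1, DSC1 and CASP14, genes of epidermal differentiation, had no count in any library, as was true of LORICRIN.

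Regulators known to act on the complex in skin were mostly lower. Of 36 listed genes 35 were tested, 23 were lower, 4 were higher (CREBBP, ARNT, EP300 and HDAC3) and 8 did not pass, where 27.1% of all genes tested were lower and 26.4% higher. The median log2 fold change was -0.55, against 0.01 for all genes tested. ELF3, TP63, OVOL1, OVOL2, POU2F3 and ZNF750 were below the filter level of 0.876 CPM in both libraries labelled Bromo+/-. They entered the test through the controls alone and could only be lower, so the counts and median describe the tested regulators only. GRHL2, ELF3 and EHF, transcription factors of epithelia, had log2 fold changes of -5.60, -7.90 and -4.70. TP63, a master factor of stratified epithelium, stood at 0.244 and 0.442 CPM against 22.2 and 22.6 CPM in the controls. Among the AP-1 genes, the log2 fold changes of FOS (-2.41), FOSL1 (-0.72), FOSL2 (-0.68), JUN (-0.55) and JUND (-0.46) passed, and that of JUNB did not (-0.08). KLF4 fell by 0.77 (SE 0.08), and CEBPB, at 66.6 and 58.7 CPM against 68.0 and 67.6 CPM, did not pass. These are transcript levels, and binding of the factors was not measured.

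Promoters could be matched for 17 of the 20 tested members, all but CRCT1, SPRR2D and SPRR2E, with 21 windows in all. TGANTCA was present in 8 of the 17 members: IVL, SPRR1A, SPRR1B, SPRR2A and S100A2, which fell, FLG, which was higher, and S100A3 and TCHH, which did not pass. By window it was in 8 of the 21 of these members, and in 7.71% of all 35116 promoter windows. Counted from the start, with the first transcribed base as 1, the match of S100A2 begins at -52, and those of SPRR1B at -141 and -111. CAGGTG was present in 7 of the 17 members (S100A14, S100A16, S100A2, S100A4, S100A9, SPRR1A and SPRR1B). By window it was in 8 of their 21, and in 20.6% of all windows. For S100A2 the match, at -18, belongs to the window of its further start, which is not printed. In the promoter of S100A14 it is the 1 motif found, at -14, and S100A4, whose level did not pass the test, holds it too. TATAAA was present in 8 members, among them IVL, SPRR1A, SPRR2A, S100A9 and FLG, and also S100A13 and S100A4. By window it was in 8 of the 21, against 11.5% of all windows. AACCNGTT and CCGGAAG were found only in S100A9 and GGGTGTG only in S100A16. The promoters of SPRR1A and SPRR1B are 65.1% identical over 318 aligned columns. The matches are letters in a window, and neither binding nor use of these promoters was measured.

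Partners and receptors of the S100 proteins were called evenly in each direction, as all genes were. Of 16 listed genes 15 were tested, 6 were lower, 6 were higher and 3 did not pass, where 27.1% of all genes tested were lower and 26.4% higher. The median log2 fold change was 0.05, against 0.01 for all genes tested. ANXA1, the annexin bound by S100A11, stood at 1081 and 1118 CPM against 2459 and 2375 CPM and fell by 1.14 (SE 0.05). ANXA2, the annexin bound by S100A10, stood at 1901 and 1836 CPM against 2754 and 2678 CPM and fell by 0.54 (SE 0.05). MYH9, the non-muscle myosin bound by S100A4, fell by 0.61. ANXA6, a further annexin bound by S100 proteins, rose from 5.82 and 4.58 CPM in the controls to 44.8 and 46.2 CPM (log2 fold change 3.14, SE 0.13). TLR4, a receptor for secreted S100A8 and S100A9, rose by 0.73, and AGER, another such receptor, was at 3.82 and 3.01 CPM against 2.77 and 2.33 CPM and did not pass. Of the S100 genes outside the complex, S100P fell to 73.4 and 64.4 CPM from 244 and 228 CPM, S100B had 1 count in each library labelled Bromo+/- and none in the controls, and S100G and S100Z had no count. S100PBP, which encodes a protein that binds S100P, rose by 0.35.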

How the data were processed

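The mRNA libraries of 4 MCF10AT samples were made with a stranded kit, per the labels' protocols. A table of unnormalized counts by Ensembl identifier was deposited by the authors. Reads were aligned with STAR to GRCh38 and counted with featureCounts 1.5.2, per the submitters' processing notes. Annotation release, strand setting and handling of multi-mapped reads were in none of the sources and are not given here. The exon length of each gene comes from the deposited table, per the file headers. Columns were matched by name. The labels never use WT, and the columns so named were taken as the non-target controls. No other column of per-sample values was present. Of 58233 identifiers 57392 were named from current symbols and 503 from GENCODE v29.

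Counts were fitted over the whole table in R 4.3.3 with edgeR 4.0.16 (filterByExpr with a minimum count of 10, TMM factors of 0.968 to 1.03, robust quasi-likelihood test, residual degrees of freedom 2, Benjamini-Hochberg adjustment over 13179 genes, threshold 0.05). The SE is that of the fitted log2 fold change. Where a group had no count, the fold is a bound that takes 3 counts as the group's floor, and where it had 1 to 3, a ratio with its 95% exact binomial interval. PCR copies are not independent, so floors and intervals cover counting error only. RPKM is scaled CPM per kb of deposited exon length. Replicates correlated at 0.995 or more within groups and at 0.912 at most between groups (Pearson, log2 CPM over genes). On simulated counts for this comparison (12940 genes), 49 of 66 genes with a true log2 change of 0.5 were called, 61 of 66 with 1 and 65 of 66 with 2, with 8 calls among 12742 unchanged genes. The simulation took its spread from these same libraries and changed few genes, whereas 53.5% of genes passed in the data. It therefore does not give the rate of false calls in the real comparison.

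Every member is accounted for. Neighbours were named by the 3 largest rises and falls and by position between tested members. List genes were named by smallest adjusted p (up to 4) or where a small count is spelled out. Of the genes these rules name, 2 are not reported here. TGM1, TP63, KLF4, CEBPB, the AP-1 genes, TLR4, AGER, the S100 genes elsewhere, CHTOP, SNAPIN, ILF2 and genes without counts were named in addition, after their values were seen. Members, lists and motifs were chosen with earlier results of these data known. Windows shared between transcripts were exact matches of 50 bases in GENCODE v29, and read length is not given. Promoters come from RefSeq (GRCh38.p14) and were aligned with Biopython 1.88. Alternatives were other scalings, filters, DESeq2 1.42.0, limma-voom (limma 3.58.1), no robust estimation, the replicate number as a block and leaving out each library.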

Additional observations from a re-analysis of the deposited data

How the results depend on the processing

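Over 251 fits of the 20 tested members under the alternatives, 241 kept direction and side of the threshold, 9 lost the call, 1 gained it and none reversed. The losses concern S100A6, S100A13 and FLG, and the gain S100A3. CRCT1 did not pass the filter, and so was not tested, without control replicate 1 or without control replicate 2. The 13 members called lower ranged from 12 to 13 over the fits without 1 library (without control replicate 2 the 13 hold S100A3 in place of CRCT1) and were 9 of 13 tested under the stricter filter. The 3 called higher ranged from 0 to 3 without 1 library, 0 being without control replicate 2 (edgeR, 0 at an unadjusted p under 0.05) and 1 without Bromo+/- replicate 1. They were 0 by the DESeq2 Wald test (1 at an unadjusted p under 0.05) and 3 by limma-voom. Neighbours called higher were 11 by DESeq2 against 17, and 12 to 14 without 1 library, and those called lower 9 to 13. Over all genes DESeq2 called 2292 higher and 2592 lower, against 3485 and 3570. With library size alone 61.3% of calls were higher against 49.4%, the median of all genes shifting by 0.08 on the log2 scale, and the members kept 13 lower and 3 higher.

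With the replicate block, 13 members were lower and 3 higher, 14 neighbours lower and 15 higher. The labels do not say that a number marks anything shared, and deviations of same-numbered libraries correlated at 0.0484, so the numbers were not taken as pairs.

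Of 40 levels per length, 6 moved by more than 1 SD with library size alone. The summed share of the members was 0.374% and 0.822% of counts over tested genes, against 0.374% and 0.821% over all genes. Depth limits the LCE, FLG-type and PGLYRP genes, most of which had under 3 counts a library. When an arm is left with 1 library, that library is assumed to vary like the other group.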
